A study of Mus musculus with 44 samples.

Results

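Kruppel-like factors are transcription factors with zinc fingers at the carboxyl end that bind GC-rich and CACCC elements of DNA. The 9 described here, Klf2, Klf3, Klf4, Klf5, Klf6, Klf7, Klf9, Klf10 and Klf13, were taken by name as rows of a deposited table of 23234 genes and followed over its 16 time points. The cells were induced leukocyte stem (iLS) cells of the mouse, made from fetal liver of the C57BL/6J strain, and are multipotent progenitors of blood whose undifferentiated state depends on Id3-ERT2, a fusion of the E protein inhibitor Id3 with a receptor domain that 4-hydroxytamoxifen (4-OHT) activates. Every library therefore comes from cells that carry this transgene. At 0 h the cells were on TSt-4, a mouse stromal feeder line, with 4-OHT at 40 nM and the cytokines SCF and Flt-3L, both at 10 ng/mL, and IL-7 at 20 ng/mL. The later groups had been moved to TSt-4 feeders in medium without 4-OHT and with less IL-7 (5 ng/mL), the condition for B cell differentiation, for 0.5, 1, 2, 4, 6, 8, 10, 12, 24, 48, 72, 96, 120, 144 or 168 h. Poly(A) RNA was sequenced in 44 libraries, with 3 libraries at each of 14 time points and 1 each at 120 h and 168 h. There is no group that was moved to fresh feeder cells with 4-OHT kept in the medium among these samples. Levels of SCF and Flt-3L are given only for the medium before the move. Effects of the transfer, of the lower IL-7, of 4-OHT removal and of any change in SCF or Flt-3L therefore cannot be told apart. The replicates are not said to be separate cultures, so the spread behind each p-value may be technical.

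As background, several genes of the family are known to be transcribed within minutes of a stimulus such as serum, mitogen or shear stress, while others are set by cell type. Klf2 is known for quiescence and migration of lymphocytes and is induced, like Klf4, by the kinase ERK5 through MEF2 factors. Klf4 is a reprogramming factor that also favours monocyte differentiation and restrains B cell proliferation, and Klf6 is an injury-response factor. Klf10 is induced early by TGF-beta, Klf5 drives proliferation in epithelial and mesenchymal cells, and Klf9 responds to steroid hormones. Klf3 is a repressor that recruits CtBP, and Klf13 acts in lymphocytes and erythroid cells.

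The 250 bases before the transcription start are printed for the 3 genes that were highest at 0.5 h and for Klf9, from RefSeq promoters on build GRCm38.p6, which held 7 of the 9 genes (Klf5 and Klf10 are named only). Capitals mark a MEF2 site, the FOXO element GTAAACA and the GC box GGGCGG, searched on both strands (CCGCCC is a GC box on the other strand). Klf2 lies at chr8:72318812-72319061 on the plus strand, Klf4 at chr4:55532476-55532725 on the minus strand, Klf6 at chr13:5861239-5861488 on the plus strand and Klf9 at chr19:23140976-23141225 on the plus strand.
Klf2: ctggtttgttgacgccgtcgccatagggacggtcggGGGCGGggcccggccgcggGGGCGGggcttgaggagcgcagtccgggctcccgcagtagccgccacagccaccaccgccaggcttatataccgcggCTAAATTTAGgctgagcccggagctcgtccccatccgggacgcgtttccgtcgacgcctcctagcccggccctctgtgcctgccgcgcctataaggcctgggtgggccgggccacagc
Klf4: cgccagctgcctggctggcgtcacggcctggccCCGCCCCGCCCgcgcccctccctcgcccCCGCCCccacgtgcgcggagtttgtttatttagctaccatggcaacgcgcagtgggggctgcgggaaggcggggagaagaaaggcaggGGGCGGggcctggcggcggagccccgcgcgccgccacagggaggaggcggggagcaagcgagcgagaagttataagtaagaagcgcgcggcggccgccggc
Klf6: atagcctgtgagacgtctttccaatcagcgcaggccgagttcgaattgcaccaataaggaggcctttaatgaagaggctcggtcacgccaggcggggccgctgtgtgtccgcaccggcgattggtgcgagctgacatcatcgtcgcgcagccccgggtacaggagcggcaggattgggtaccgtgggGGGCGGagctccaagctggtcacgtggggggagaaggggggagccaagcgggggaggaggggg
Klf9: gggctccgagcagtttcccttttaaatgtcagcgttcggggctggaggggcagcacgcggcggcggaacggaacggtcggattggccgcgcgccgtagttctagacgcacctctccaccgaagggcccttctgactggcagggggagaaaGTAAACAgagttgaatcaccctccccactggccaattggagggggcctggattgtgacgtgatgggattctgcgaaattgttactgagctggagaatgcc
A MEF2 site was present in the Klf2 window, 118 to 109 bases before the start, and in none of the other 6 windows. Of the 32851 RefSeq windows of this length, 0.508% held one. Klf9 held the FOXO element 100 to 94 bases before its start, as did 3.17% of all windows. GC boxes were in 6 of the 7 windows and in 32.7% of all windows, and the Klf4 window held 4, of which 2 share a base. CACCC, which can overlap a GC box, was in 5 of 7 against 52% of all. The CArG box, the serum response element core, was in 0 of 7 and in 1.47% of all windows. The cyclic AMP element TGACGTCA and the EGR element GCGTGGGCG were in 0 of 7, against 1.55% and 0.536%. A match describes letters in this window and shows no binding.

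All values below are FPKM, fragments scaled to transcript length and library total by the authors. Changes are differences of mean log2(FPKM + 1) from limma with SE, which understate the change of low genes, and a gene is called where the adjusted p is under 0.05. Summed FPKM per library ran from 516025 to 701705, between 11520 and 12316 genes reached 1 FPKM, and relative depth estimated from the lowest values ran from 0.551 to 2.27 times that of 0 h replicate 1. Against 0 h, 20 genes of stromal feeder cells rose from a summed 1295 ± 765 FPKM (SD, n = 3) to 6373 ± 884 at 0.5 h and 8807 ± 630 at 6 h, and were 2373 ± 607 at 144 h. The 18 general blood-cell genes moved the other way, from 2374 ± 300 at 0 h to 1174 ± 51.8 at 0.5 h, 774 ± 34.8 at 6 h and 547 ± 232 at 24 h, with 1759 ± 128 at 144 h. At 6 h, 19 of 19 tested stromal genes were called higher and 17 of 18 blood-cell genes lower than at 0 h (Eln was too low to test). In these bulk samples, fewer cells of a type and less RNA per cell cannot be told apart, and the labels mention no step to remove the feeder cells. Summed B-lineage genes (7 genes) first fell from 104 ± 20.3 at 0 h to 31.3 ± 2.79 at 6 h, and were 1270 ± 190 at 144 h. The sum of 5 progenitor genes was 506 at 0 h, 118 at 6 h and 168 at 144 h. Macrophage genes summed to 27.8 to 304 FPKM and erythroid genes to 0.0104 to 139. The library 24 h replicate 3 stood apart, with the lowest summed FPKM and a blood-cell sum of 307, so values that rest on it are also given without it.

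**Figure D1:**
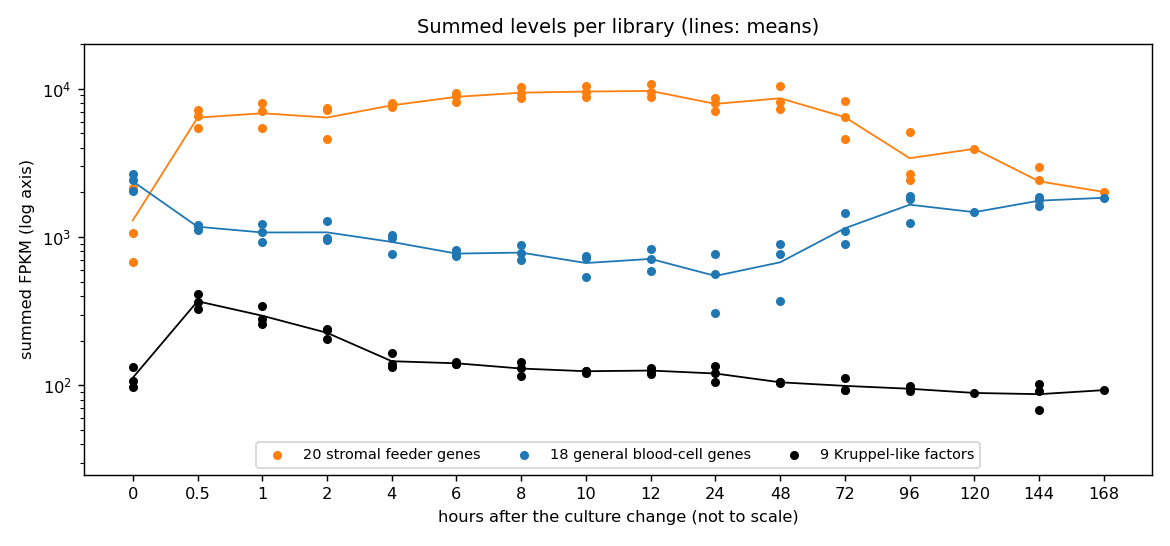
Summed FPKM per library (log axis) against hours after the culture change, for 20 stromal feeder genes (orange), 18 general blood-cell genes (blue) and the 9 Kruppel-like factors (black). Points are libraries and lines are means. The family's sum is highest at 0.5 h (369) and the stromal sum is still 6425 at 72 h.

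Together the 9 genes summed to 113 ± 19 FPKM at 0 h (SD, n = 3), and reached 369 ± 42.6 at 0.5 h. The sum then declined through 295 ± 44.5 at 1 h, 227 ± 19.4 at 2 h and 141 ± 2.49 at 6 h to 87.7 ± 17.5 at 144 h. At 0 h the highest means were those of Klf2 (28.6 FPKM) and Klf13 (23.8), whose libraries overlapped. Klf6 (15.6) and Klf3 (15.2) came next and overlapped each other. Klf4 (8.79), Klf10 (8.04) and Klf7 (7.13) could not be ordered beyond their spread. Klf9 (4.15) and Klf5 (1.43) were lowest, and their libraries did not overlap each other or those of Klf7. By the F test over the 13 later time points, 8 of 9 were called, against 56% of all 13907 genes tested. The exception was Klf3, with an adjusted p of 0.126.

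**Figure D2:**
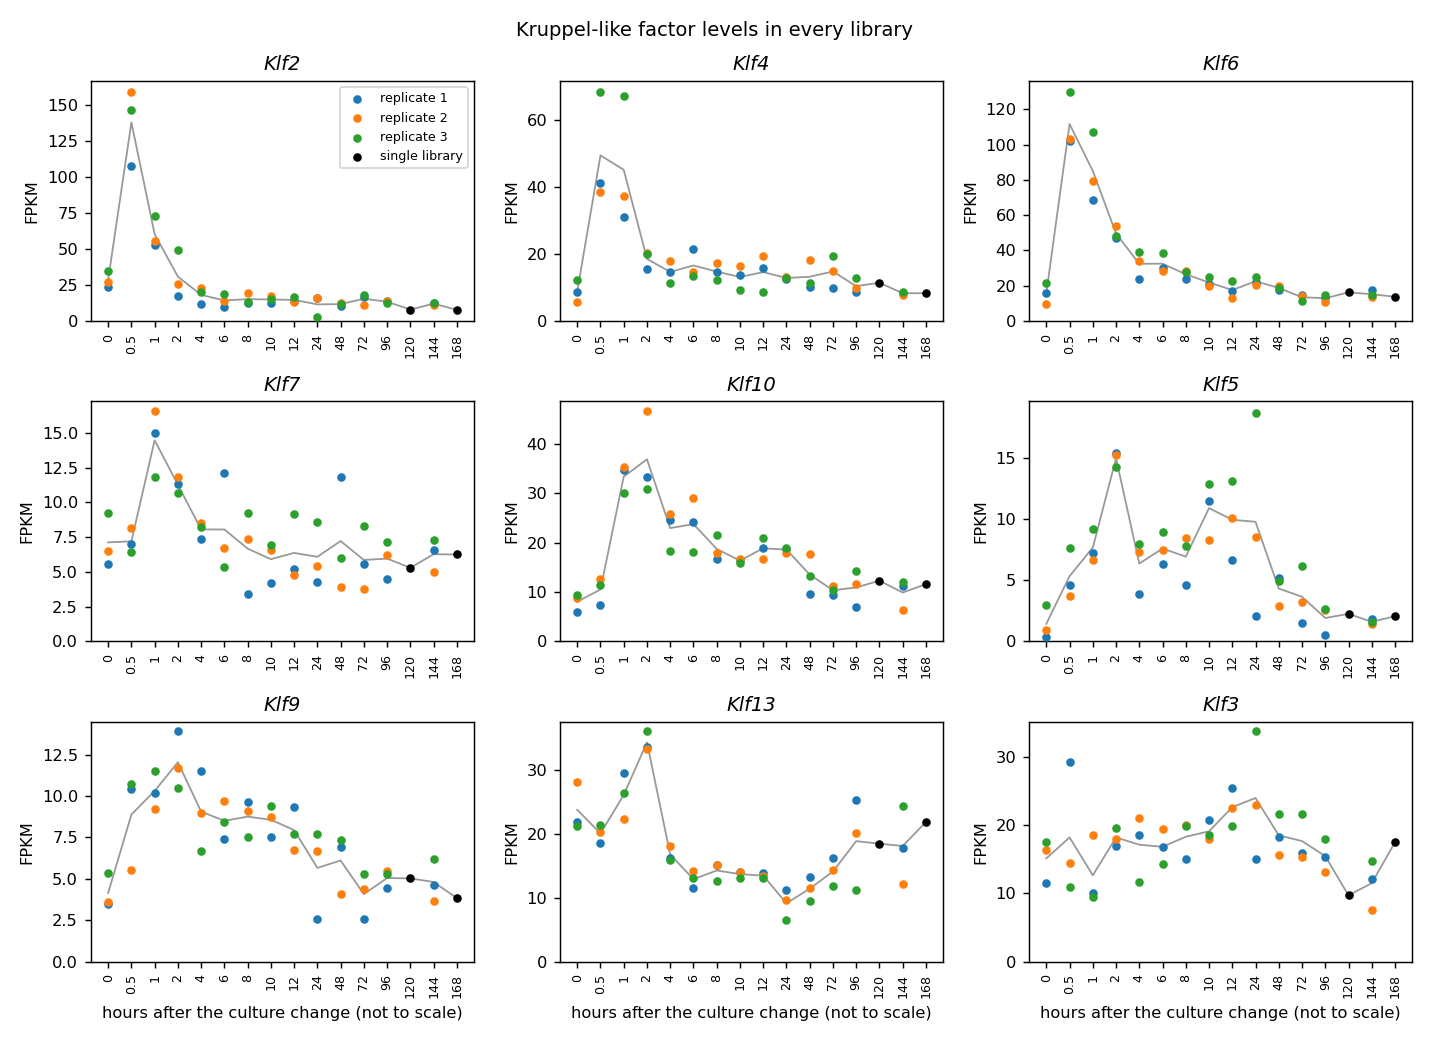
FPKM of each Kruppel-like factor in every library against hours after the culture change. Colours are replicates, black points are the single libraries at 120 h and 168 h, and the grey line joins means. Klf2, Klf4 and Klf6 peak at 0.5 h, Klf7 at 1 h, and Klf10, Klf5, Klf9 and Klf13 at 2 h.

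The comparison of 0.5 h with 0 h was added after the data had been seen, so its p-values and counts are a description. At 0.5 h, 5 of the 9 genes were called higher than at 0 h and 0 lower, where 14.3% of all genes tested were called higher and 7.29% lower. The sizes differed widely among them. Klf6, the injury-response factor, was 15.9, 9.52 and 21.4 FPKM at 0 h and 102, 103 and 130 at 0.5 h, a 7.14-fold rise of the mean. Klf2 went from 23.9, 27.4 and 34.5 to 108, 159 and 147 FPKM, 4.83-fold, and was the most abundant of the family at 0.5 h, although its libraries overlapped those of Klf6. Klf4 went from 8.57, 5.69 and 12.1 to 41.3, 38.5 and 68.5 FPKM, 5.62-fold. For each of these genes every 0.5 h library lay above every 0 h library. Their log2 changes were 2.82 ± 0.21 for Klf6 (adjusted p = 4.46e-11), 2.23 ± 0.37 for Klf2 (3.18e-05) and 2.37 ± 0.30 for Klf4 (7.22e-07).

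Klf5 and Klf9 rose less at 0.5 h. Klf5 was 0.32, 0.966 and 3.01 FPKM at 0 h and 4.63, 3.71 and 7.66 at 0.5 h, with a log2 change of 1.49 ± 0.45 (adjusted p = 0.0163). Klf9 went from 3.50, 3.60 and 5.35 to 10.4, 5.54 and 10.7 FPKM, with a log2 change of 0.91 ± 0.27 (adjusted p = 0.0138), and its lowest 0.5 h library was close to the highest at 0 h. Klf5 lost its call without 0 h replicate 1 or 2 or 0.5 h replicate 3 (adjusted p 0.0597 to 0.127), and Klf9 without 0 h replicate 1 or 2 or 0.5 h replicate 1 or 3 (0.0607 to 0.0746). Klf10 was 7.44, 12.7 and 11.4 FPKM at 0.5 h and 6.00, 8.80 and 9.33 at 0 h, which overlap. Klf13 was 18.6, 20.3 and 21.4 FPKM at 0.5 h against 21.9, 28.2 and 21.3 at 0 h. Klf3 and Klf7 also overlapped between the groups.

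The rise at 0.5 h coincided with the change in stromal and blood-cell sums given above. Klf6 kept its call with the stromal mean as a covariate (log2 2.66 ± 0.39, adjusted p = 0.000374). Klf2 (2.34 ± 0.69, adjusted p = 0.561), Klf4 (1.59 ± 0.53, 0.853), Klf5 (-0.09 ± 0.77) and Klf9 (0.03 ± 0.46) did not, in a fit that called 20 of all genes. With libraries scaled to the blood-cell genes, which brought the median log2 change of all genes to 0.70, 7 members were called higher and 0 lower. The library codes in the labels fall into 6 runs of consecutive numbers, whose meaning is not stated. Within the 3 runs that hold both times, the log2 difference was 2.55, 2.61 and 3.30 for Klf6, 2.06, 2.13 and 2.50 for Klf2, and 2.41, 2.14 and 2.56 for Klf4.

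At 1 h, 7 of 9 genes were called higher and 0 lower, against 16.8% and 15.3% of all genes. Klf10, the early TGF-beta response gene, entered here. It rose to 34.8, 35.4 and 30.0 FPKM, above each 0 h library, a log2 change of 1.94 (adjusted p = 2.01e-07). Klf7 reached its highest mean, 14.5 FPKM (15.0, 16.6 and 11.8), from 5.60, 6.50 and 9.27 at 0 h. Its log2 change was 0.94 (adjusted p = 0.0236). Klf6 was still at 68.8, 79.4 and 107 FPKM and Klf4 at 30.9, 37.4 and 67.1, with log2 changes of 2.42 (5.96e-10) and 2.21 (1.12e-06). Klf2 had already declined to 52.9, 55.6 and 72.8 FPKM, a log2 change of 1.06 over 0 h (adjusted p = 0.0274). Klf5 (1.98, adjusted p = 0.00105) and Klf9 (1.15, 0.00135) were also higher. The calls of Klf2 and Klf7 were lost without 0 h replicate 1 or 2, without 1 h replicate 2, and for Klf2 without 1 h replicate 3 or for Klf7 without 1 h replicate 1 (adjusted p 0.053 to 0.103). With the stromal mean as a covariate Klf6 alone of the 9 was called (2.26 ± 0.40, adjusted p = 0.00392). In that fit Klf2 read 1.17, Klf4 1.41, Klf10 0.85, Klf5 0.35, Klf9 0.24 and Klf7 0.18. Scaling to the blood-cell genes brought the median change of all genes to 0.76 and called 8 members higher.

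**Figure D3:**
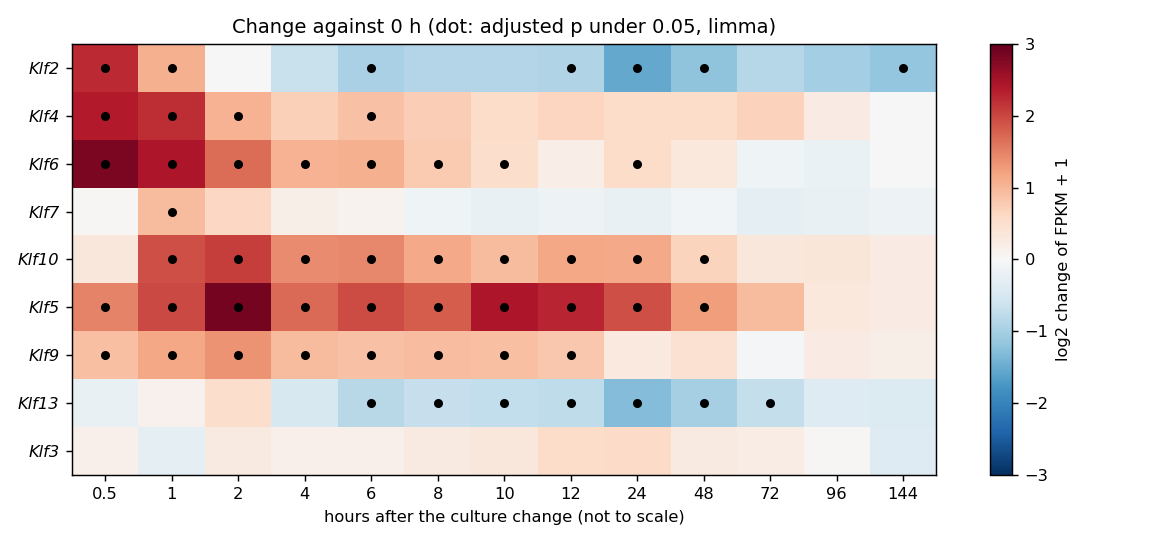
Log2 change of FPKM + 1 against 0 h for the 9 genes (rows) at the 13 later replicated time points (columns). Red is higher, blue lower, and a dot marks an adjusted p under 0.05 (limma). Klf10 and Klf5 carry dots to 48 h, Klf9 to 12 h, and Klf2 and Klf13 are called lower from 6 h, though not at every time. The Klf2 and Klf13 values at 6 h and 24 h turn positive when libraries are scaled to the blood-cell genes.

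The step from 0.5 h to 2 h was added with the members' values known, because their peaks lay on either side of it. That choice fixes the direction of most members, so the changes over this step are a description, given with SE and no p. The stromal sum was 6386 ± 1550 at 2 h and 6373 ± 884 at 0.5 h, the blood-cell sum 1075 ± 185 and 1174 ± 51.8. In this comparison 0 of 19 stromal and 0 of 18 blood-cell genes were called, with median log2 changes of -0.1 and -0.14. Of the 9 members, 2 were called higher and 3 lower, against 1.96% and 1.6% of all genes. The other 4 were not called. Since the step was picked from the members' own values, these counts cannot be read against the shares of all genes. Calls named below for this step only describe the values.

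Klf2, Klf4 and Klf6 were lower at 2 h. Klf2 was 17.5, 25.8 and 49.1 FPKM at 2 h, a log2 change of -2.23 ± 0.37. Klf4 was 15.4, 20.2 and 20.0 FPKM, with -1.33 ± 0.30. Klf6 was 46.9, 53.6 and 48.1 FPKM, with -1.15 ± 0.21, and still lay above every 0 h library, whereas Klf2 overlapped its 0 h level. In each case no 2 h library reached the lowest at 0.5 h. With the stromal covariate the values were nearly the same, -2.23, -1.35 and -1.15, and the calls held. The stromal sum was alike at both times, so this covariate could move the step little. Scaled to the blood-cell genes, with the median change of all genes at 0.04, Klf2 kept its call (-2.08), and Klf4 (-1.18) and Klf6 (-0.99) lost theirs. Klf4 also lost its call without 0.5 h replicate 3 (-1.08) or 2 h replicate 1 (-1.21). Within the 3 runs the difference was -1.56, -2.56 and -2.57 for Klf2, -1.73, -1.37 and -0.90 for Klf4, and -1.41, -1.10 and -0.93 for Klf6.

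Klf10 and Klf13 were higher at 2 h than at 0.5 h. Klf10 went to 33.3, 46.6 and 30.8 FPKM at 2 h, a log2 change over 0.5 h of 1.73 ± 0.24, with no overlap. Klf13 went from 18.6, 20.3 and 21.4 to 33.6, 33.4 and 36.1 FPKM, a log2 change of 0.75 ± 0.21. All 3 of its 2 h libraries also lay above the highest 0 h library, 28.2, but the change over 0 h (log2 0.52 ± 0.21) was not called. Both stayed called with the stromal covariate (1.71 and 0.75), which could move this step little, and after scaling to the blood-cell genes (1.87 and 0.89). The call of Klf13 was lost when any 1 of the 6 libraries was left out, while its change stayed between 0.69 and 0.79. Within runs Klf10 differed by 1.36, 2.02 and 1.80 and Klf13 by 0.73, 0.82 and 0.69.

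Klf5 and Klf9 were also highest at 2 h without a call for the step. Klf5 was 15.4, 15.2 and 14.3 FPKM, 10.4-fold its 0 h mean and above each 0.5 h library. Its log2 change over 0.5 h was 1.38, not called. It was called with the replicate number or the run of library codes as a block (1.38), in a comparison where same-numbered libraries deviated together. Klf9 was 13.9, 11.7 and 10.5 FPKM, overlapping its 0.5 h libraries (log2 0.44). Klf7 was 11.3, 11.8 and 10.7 FPKM at 2 h (log2 0.59). The repressor Klf3 stayed in a band, 17.0, 18 and 19.6 FPKM at 2 h against 29.2, 14.4 and 11 at 0.5 h.

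**Figure D4:**
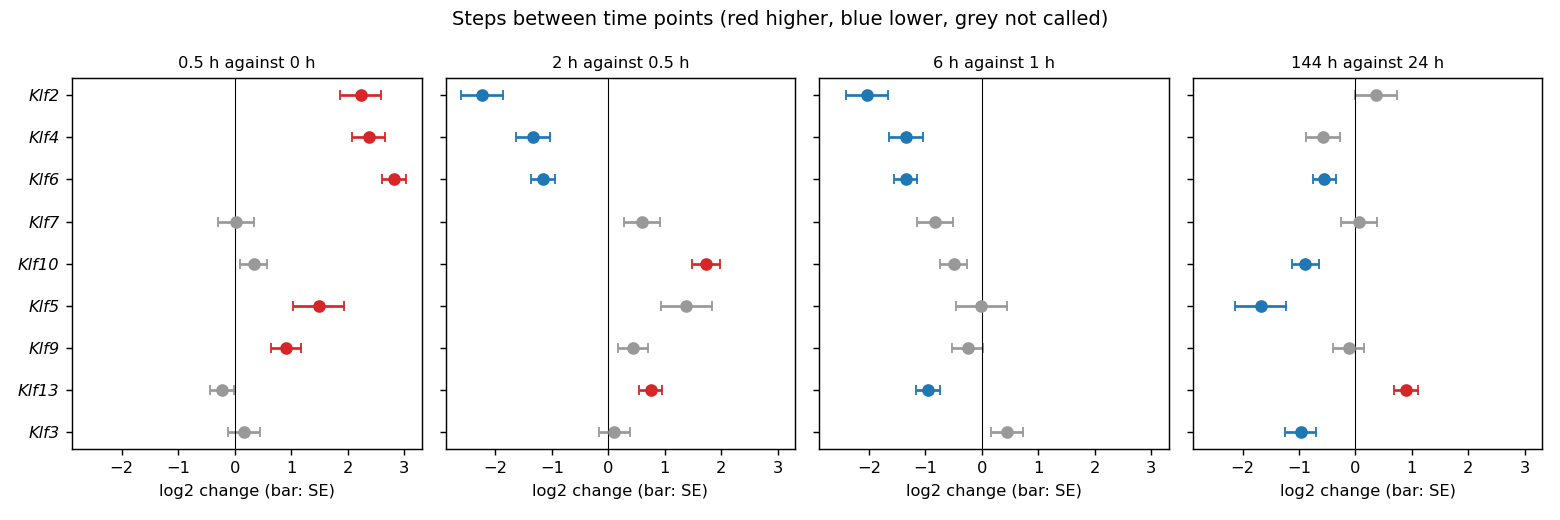
Log2 change (point) with SE (bar) of each gene in 4 comparisons between time points, red called higher, blue called lower and grey not called. At 2 h against 0.5 h, a step picked from the members' values, Klf2, Klf4 and Klf6 read -2.23, -1.33 and -1.15 and Klf10 and Klf13 1.73 and 0.75. At 144 h against 24 h, Klf13 (0.89) is -0.77 after scaling to the blood-cell genes.

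From 1 h to 6 h, 0 members were called higher and 4 lower, against 2.4% and 2.6% of all genes. Klf2 fell to 10.0, 14.1 and 18.7 FPKM (log2 -2.03, adjusted p = 0.000788), Klf4 to 21.6, 14.7 and 13.4 (-1.35, 0.00528), and Klf6 to 30.3, 28.4 and 38.7 (-1.35, 0.000121). Klf13 fell from 29.6, 22.3 and 26.5 to 11.5, 14.2 and 13.1 FPKM (-0.96, adjusted p = 0.00483), with no overlap. Klf10 fell less and was not called, with 24.1, 29.1 and 18.1 FPKM at 6 h (-0.50, adjusted p = 0.247). Each of these still lay below its lowest 1 h library, 30.0. With the stromal mean as a covariate Klf10 was called lower (-0.69, adjusted p = 0.0485). Klf3, Klf5, Klf7 and Klf9 overlapped between 1 h and 6 h. Klf4 lost its call without 1 h replicate 3 (-1.03, adjusted p = 0.0623). Scaling to the blood-cell genes, which brought the median change of all genes to 0.38, left Klf2 called (-1.61) and the other 3 not called. Within the 3 runs Klf2 differed by -1.90, -2.29 and -1.90, and Klf13 by -0.96, -1.30 and -0.61.

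Against 0 h, the 6 h libraries had 5 members called higher and 2 lower (19% and 19.2% of all genes). The higher ones were Klf5 (6.36, 7.48 and 8.93 FPKM, log2 1.96, adjusted p = 0.000775), Klf10 (1.45, 1.08e-05), Klf6 (1.07, 0.000163), Klf9 (0.89, 0.00822) and Klf4 (0.87, 0.0211). Klf2 (-0.98, adjusted p = 0.0353) and Klf13 (-0.83, 0.00208) were lower. Both turned positive when scaled to the blood-cell genes (0.49, not called, and 0.63, adjusted p = 0.0115). That scaling brought the median change of all genes to 1.14 and called 8 members higher and 0 lower. Klf2 and Klf13 both stayed below that median. Klf2 lost its call without 0 h replicate 2 or 3 or 6 h replicate 1 or 2 (adjusted p 0.0684 to 0.16), and Klf4 without 0 h replicate 2 or 6 h replicate 1 (0.151 and 0.121). Within runs Klf2 differed by -0.85, -1.18 and -0.91, and Klf13 by -0.66, -0.88 and -0.94.

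At 24 h against 0 h, 3 members were called higher and 2 lower, beside 20.8% and 22.5% of all genes. Klf10 was 18.8, 18 and 19 FPKM, above every 0 h library (log2 1.14, adjusted p = 0.000218). Klf5 varied widely, with 2.1, 8.53 and 18.7 FPKM (1.93, adjusted p = 0.000774). Klf6 was 22.1, 20.4 and 25 FPKM (0.56, adjusted p = 0.0316), a call lost without 0 h replicate 2 or 24 h replicate 1 or 3 (0.0544 to 0.337). Klf13 was at its lowest, 11.2, 9.70 and 6.59 FPKM, with no overlap with 0 h (-1.30, adjusted p = 7.07e-06), and Klf2 was 16.3, 15.7 and 2.58 FPKM (-1.53, adjusted p = 0.00109).

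The 24 h values depended on replicate 3 and on the scaling. Without 24 h replicate 3 the change was -0.78 for Klf2 (adjusted p = 0.0341), 1.31 for Klf5 (0.021), 1.12 for Klf10 (0.0013) and -1.11 for Klf13 (0.00022). Scaled to the blood-cell genes, with the median change of all genes at 1.76, 8 members were called higher and 0 lower. Klf13 then read 0.78 (adjusted p = 0.00153) and Klf2 0.51, below that median. With the stromal mean as a covariate 0 members and 7 of all genes were called. From 6 h to 24 h 0 members were called by limma (2.08% of all genes), with 3 of 9 at an unadjusted p under 0.05. Within the 2 runs that hold 0 h and 24 h, Klf13 differed by -0.90 and -1.45 and Klf10 by 1.5 and 0.96.

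**Figure D5:**
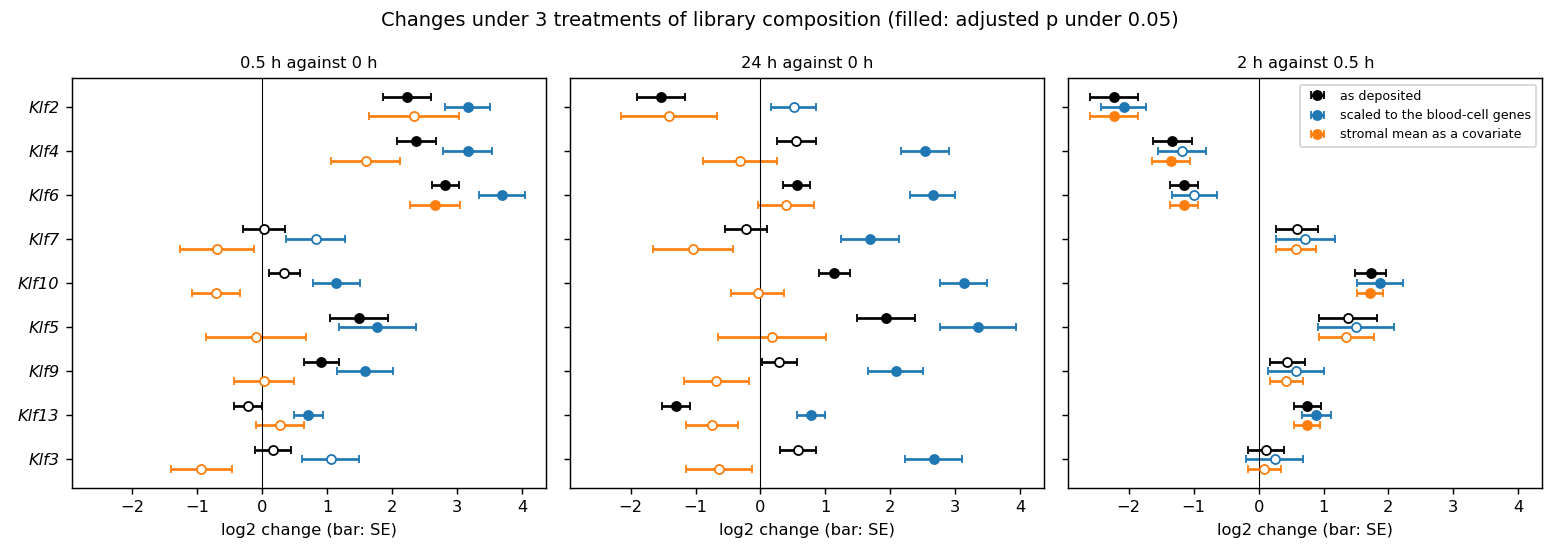
Log2 change with SE of each gene in 3 comparisons, as deposited (black), scaled to the blood-cell genes (blue) and with the stromal mean as a covariate (orange). Filled points have an adjusted p under 0.05. The treatments spread apart at 24 h against 0 h, where Klf13 reads -1.30, 0.78 after scaling and is not called with the covariate. They nearly coincide at 2 h against 0.5 h, times at which the stromal and blood-cell sums were alike.

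Of the intervening times, the members called higher numbered 5 at 2 h, 4 at 4, 8 and 10 h, 3 at 12 h and 2 at 48 h (16.5%, 18%, 20.4%, 21.1%, 21.6% and 22% of all genes at 2, 4, 8, 10, 12 and 48 h). Those called lower were 0 at 2 and 4 h, 1 at 8 and 10 h and 2 at 12 and 48 h (18.5%, 17%, 19.2%, 20.5%, 20.3% and 16.4%). After 48 h fewer members differed from 0 h, as did fewer of all genes. At 72 h 0 members were called higher and 1 lower (17.2% and 8.23% of all genes). It was Klf13, at 16.2, 14.4 and 11.8 FPKM (log2 -0.71, adjusted p = 0.0109). It read 0.31 when scaled to the blood-cell genes (median change of all genes 0.88, 5 members higher and 0 lower). Its call was lost without 0 h replicate 2 or 72 h replicate 3 (0.0744 and 0.0778). At 96 h 0 members were called by limma (10.3% of all genes), with 1 at an unadjusted p under 0.05. At 144 h Klf2 was called lower, the only one (5.64% of all genes were called higher and 3.24% lower), with 12.4, 10.9 and 12.7 FPKM, below every 0 h library (-1.17, adjusted p = 0.0409). Its call did not survive leaving out any 1 of the 6 libraries (0.0734 to 0.118) or scaling to the blood-cell genes (-0.72, adjusted p = 0.24, median change of all genes 0.34). No run of library codes held both 0 h and a library of 48 h or later, so there is no within-run value, and the late times connect to 0 h through the libraries of 8 to 24 h. With the runs as a block, Klf2 at 144 h was -0.39 (adjusted p = 0.639) and Klf13 at 72 h -0.63 (0.0825), neither called, and Klf4 at 72 h was called higher (1.43, 0.0033).

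Between 24 h and 144 h, 1 member was called higher and 4 lower, against 17.4% and 15.6% of all genes. Klf5 fell to 1.80, 1.38 and 1.62 FPKM (log2 -1.68, adjusted p = 0.00431), Klf10 to 11.2, 6.41 and 12.1 (-0.89, 0.00406), and Klf6 to 17.7, 13.3 and 14.5 (-0.55, 0.0472). Klf3, flat until then, went from 15.1, 23.0 and 33.8 FPKM to 12.1, 7.63 and 14.8 (-0.97, adjusted p = 0.0084). Klf13 went up from 11.2, 9.70 and 6.59 to 17.8, 12.2 and 24.4 FPKM (0.89, adjusted p = 0.00143), but read -0.77 (0.00195) when scaled to the blood-cell genes. That scaling brought the median change of all genes to -1.41 and called 0 members higher and 9 lower. Without 24 h replicate 3, Klf3 (adjusted p = 0.0902), Klf5 (0.0792) and Klf6 (0.152) lost their calls, and Klf10 (0.0156) and Klf13 (0.69, 0.0219) kept them. Klf6 also lost it without 24 h replicate 1 or 2 or 144 h replicate 2 or 3 (0.053 to 0.161), and Klf3 (0.081) and Klf10 (0.0588) lost theirs without 144 h replicate 2. In the 1 run with both times, whose 24 h library is replicate 3, Klf13 differed by 1.74, Klf5 by -2.91 and Klf10 by -0.61.

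The single libraries extend this late course without a test. A single library can fall outside the range of the 3 libraries at 0 h by spread alone. The share of all genes that did so was not counted, so no count of members is given. Klf2 was 7.95 FPKM at 120 h and 7.78 at 168 h, under its lowest 0 h library of 23.9. Klf13 was 18.5 FPKM at 120 h, under its lowest 0 h library of 21.3, and 21.9 at 168 h, within its 0 h range. Klf6 was 16.2 and 13.7 FPKM, within its 0 h range.

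Of 17 other Klf and Sp genes in the table, 9 were high enough to test. Klf1, Klf12, Klf14, Klf15, Klf17, Sp5, Sp6 and Sp9 were not, and none of these reached more than 2.01 FPKM in any library. Of all genes, 16.8%, 19%, 20.8%, 17.2% and 5.64% were called higher at 1, 6, 24, 72 and 144 h. The shares called lower were 15.3%, 19.2%, 22.5%, 8.23% and 3.24%. At 1 h, 3 of the 9 were called higher and 1 lower. Klf11, which like Klf10 is a TGF-beta-inducible repressor, went from 1.46 to 4.34 FPKM (log2 1.18 ± 0.24, adjusted p = 0.000345). Sp8 went from 0.153 to 1.86 FPKM (1.32) and Sp7, a bone factor, from 4.86 to 1.80 (-0.99). At 6 h 0 were higher and 2 lower (Sp1 -0.36, Sp4 -0.92), at 24 h 1 was higher (Sp8 0.69, and 0.58, not called, without 24 h replicate 3) and 1 lower (Sp4 -0.95, and -0.81 without it), at 72 h 0 were called, with 2 at an unadjusted p under 0.05, and at 144 h 1 was lower (Sp7 -1.48).

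Of 8 ERK5 and MEF2 genes, which act upstream of Klf2 and Klf4, 0 were called higher in any of the 5 comparisons of 1, 6, 24, 72 and 144 h with 0 h. The number called lower was 3 for 6 h and 2 for each of the others, and 3 for 24 h without 24 h replicate 3. Among all genes, 16.8%, 19%, 20.8%, 17.2% and 5.64% were called higher at these 5 times. The shares called lower were 15.3%, 19.2%, 22.5%, 8.23% and 3.24%. With 8 genes, the counts are a description. Outside these comparisons, 1 of the 8 was called higher at 8 h and 1 at 12 h. Mef2c, a MEF2 factor abundant in lymphoid progenitors, went from 54.7 ± 10.6 FPKM at 0 h to 24.7 ± 5.42 at 1 h (log2 -1.12 ± 0.35, adjusted p = 0.0146) and 12.1 ± 4.54 at 24 h (-2.13 ± 0.35, 1.12e-05), and its 24 h change was -1.97 without replicate 3. Map2k5, the kinase that activates ERK5, was lower at 1 h (-0.47), 6 h (-0.77) and 24 h (-0.64, and -0.60 without 24 h replicate 3). Mef2d was lower at 6 h (-0.81) and Mef2a at 144 h (-0.66). Transcript levels do not report kinase activity.

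Of 10 corepressors and coactivators, 0 were higher and 1 lower at 1 h (Sin3a, -0.45), 0 and 3 at 6 h (Rcor1 -1.10, Hdac1 -0.77, Sin3a -0.48), 1 and 4 at 24 h (with Rcor1 -0.93, Hdac1 -0.73 and Sin3b -0.61 the largest), 1 and 1 at 72 h (Kat2b 0.57, Rcor1 -0.80), and 0 at 144 h by limma (1 at an unadjusted p under 0.05). Without 24 h replicate 3 the 24 h counts were again 1 and 4, with Rcor1 -0.90 and Hdac1 -0.58, and Sin3b (-0.23) was not called. Among all genes 15.3%, 19.2% and 22.5% were lower at 1, 6 and 24 h, so shares of 10 genes near these say nothing particular about the cofactors. Of 14 genes known as targets of family members, Thbd and Nos3 were too low to test. Of the other 12, the numbers higher and lower were 6 and 2 after 1 h, 4 and 2 after 6 h, again 4 and 2 after 24 h, then 3 and 2 after 72 h and finally 2 and 1 after 144 h. The shares of all genes called higher at these times were 16.8%, 19%, 20.8%, 17.2% and 5.64%. Those called lower were 15.3%, 19.2%, 22.5%, 8.23% and 3.24%. Ccnd1, the G1 cyclin, rose from 15.0 ± 8.82 FPKM to 65.7 ± 3.09 at 1 h (log2 2.20 ± 0.24, adjusted p = 3.35e-08). Lgals3 rose by 1.76 and Col1a1, which is also in the stromal list, by 2.53. Itgb7, an integrin of lymphocytes, fell to 22.8 ± 11.8 at 24 h from 76.7 ± 12.7 (-1.86 ± 0.33, 2.70e-05), and read -1.33 ± 0.31 without 24 h replicate 3. Of 4 ubiquitin ligases that act on the proteins, Smurf1 was higher at 1 h (1.07), 6 h (1.30), 24 h (1.12) and 72 h (0.68), and Fbxw7 lower at 24 h (-0.79). Without 24 h replicate 3 these 24 h values were 1.02 for Smurf1 and -0.89 for Fbxw7, both called. These lists move against 0 h together with the stromal and blood-cell sums, whose part in them was not tested.

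The 3 genes whose means over 14 time points followed each member most closely were found among 13746 genes by Pearson r on log2(FPKM + 1), a description over points that share libraries. They were Ier2 (0.967), Fosb (0.957) and Zfp36 (0.954) for Klf2, and Arc for both Klf4 (0.968) and Klf6 (0.963). Adamts1 (0.967) and Nfkbiz (0.961) completed the list of Klf4, Plk3 (0.956) and Egr2 (0.951) that of Klf6. In the order 0, 0.5 and 1 h, the means were 50.0, 359 and 136 FPKM for Ier2 and 0.925, 84.8 and 70.4 FPKM for Arc. The list of Klf5 held Srxn1 (0.956) and Hmox1 (0.95), genes of the oxidative stress response. Klf9 was closest to Srf (0.958), Maff (0.945) and Ifrd1 (0.941), Klf10 to Nipal1 (0.935), Azin1 (0.932) and Cdc42ep3 (0.927), and Klf7, highest at 1 h, to Ptger4 (0.942), Rhov (0.927) and Plekho2 (0.922). Klf13 was closest to Bcl2l11 (0.926), Il17ra (0.926) and Ptafr (0.919), and Bcl2l11, which encodes the death activator Bim, was 27.7 FPKM at 0 h, 75.9 at 2 h and 13.1 at 24 h. Its 24 h mean was 17.1 with replicate 3 left out. Klf3, which the F test did not call, had Hoxb5 (0.899), Gatad1 (0.872) and Slc35e3 (0.872).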

How the data were processed

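Poly(A) RNA-seq of 44 libraries was read from 1 deposited table of FPKM values, made by the authors with TopHat2 2.1.0 and Cufflinks 2.1.1 on mm9, per the submitters' processing notes. The word corrected in the table's name is not explained. It holds no counts, so absolute depth is unknown and no counting interval is given. Strand use in counting is not stated, so reads of overlapping antisense genes cannot be told apart. Groups follow the labels' time points.

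Values were taken as log2(FPKM + 1). The 13907 genes, all 9 members among them, that reached 1 FPKM in 3 or more of 42 libraries were fitted in limma 3.58.1 (R 4.3.3) with 1 mean per time point, eBayes with a trend and Benjamini-Hochberg adjustment over all genes in each comparison. The libraries at 120 h and 168 h were not fitted. The scripts were checked on simulated data. With 3 libraries a group the smallest p of an exact permutation test is 0.1, so none is given. Related genes were named at 1, 6, 24, 72 and 144 h against 0 h where called, at most 3 per list and comparison by size, and for each member the 3 genes most like it, apart from a result that is not reported here. Members, lists and comparisons were chosen with earlier results of these data known. Alternatives were a pseudocount of 0.1, no filter, quantile normalization, scaling to 18 blood-cell genes, a stromal covariate, a replicate block, a block of library-code runs, the compared groups alone, and leaving out each of 42 libraries. Same-numbered libraries deviated together (r over 0.1 in each pair) at 2 h against 0.5 h (0.12, 0.13 and 0.21) and 6 h against 1 h (0.15, 0.11 and 0.23), as a check on the data, since the labels do not say what a number shares. Promoters are RefSeq's on GRCm38.p6. A genome of build mm9 was not used here.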

Additional observations from a re-analysis of the deposited data

Results flagged for a closer look

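Klf10 was 12.3 FPKM in the single library at 120 h and 11.6 FPKM in the single library at 168 h, both outside the tested comparisons and above the 3 libraries at 0 h (6.00 to 9.33 FPKM). Both libraries belong to the run of library codes that holds replicate 3 of 96 h (14.2 FPKM) and 144 h (12.1 FPKM), and whether the run plays a part was not tested. Only values above the 0 h libraries were flagged. Values below them, those of Klf2, Klf3, Klf7 and Klf13 at 120 h and of Klf2 at 168 h, were not.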

How the results depend on the processing

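The comparisons 0.5 h against 0 h and 2 h against 0.5 h and the fits without 24 h replicate 3 were added after seeing the data. With the stromal mean as a covariate, the count of members called went from 5 to 1 at 0.5 h, 7 to 1 at 1 h, 7 to 0 at 6 h, 5 to 0 at 24 h, 1 to 0 at 72 h and 1 to 0 at 144 h against 0 h, and from 5 to 0 at 144 h against 24 h; of the 47 log2 values compared (the called ones and 7 others), those that changed sign were Klf5 (-0.09), Klf10 (-0.72) and Klf13 (0.27) at 0.5 h, Klf4 (-0.08) and Klf9 (-0.17) at 6 h, and Klf10 (-0.04) at 24 h. All genes called in that fit against 0 h numbered 20, 33, 21, 7, 4 and 492 at these times. Losing a call there is not the same as a smaller change: with the covariate Klf2 read 2.34 ± 0.69, 1.17 ± 0.70, -0.85 ± 0.79, -1.41 ± 0.74 and -1.13 ± 0.44 at 0.5, 1, 6, 24 and 144 h, close to its values as deposited, with a larger SE. Scaled to the blood-cell genes, the counts were 8 at 24 h, 5 at 72 h and 0 at 144 h against 0 h, 1 at 6 h against 1 h, 9 at 144 h against 24 h and 3 at 2 h against 0.5 h. Of the same 47 values, those that changed sign were Klf13 at 0.5 h (0.71), 6 h (0.63), 24 h (0.78), 72 h (0.31) and 144 h (0.01) against 0 h and at 144 h against 24 h (-0.77), and Klf2 at 6 h (0.49) and 24 h (0.51); values outside the 47, none of them called as deposited, also changed sign under both treatments. Fitting the compared groups alone, with fewer libraries for the spread, gave 3 at 0.5 h, 2 at 24 h and 0 at 72 h against 0 h, 0 at 144 h against 24 h and 1 at 2 h against 0.5 h (Klf6). Quantile normalization gave 2 at 72 h (with Klf2 -0.95) and changed the share of higher genes among all called from 66.3 to 55.4% at 0.5 h, 67.6 to 51.3% at 72 h and 55 to 66.9% at 2 h against 0.5 h. The pseudocount of 0.1, no filter and the library-code block each gave 0 at 144 h, and the block gave Klf4 in place of Klf13 at 72 h. The library-code block also added Klf4 at 24 h against 0 h (0.81), Klf7 at 6 h against 1 h (-0.83) and Klf5 at 2 h against 0.5 h (1.38). It ended the call of Klf3 at 144 h against 24 h (-0.81). The replicate block gave 2 at 72 h (with Klf5 0.96) and 6 at 2 h against 0.5 h, where Klf5 was gained, and ended no call. From 0 h to 6 h, libraries with the same replicate number also share a run of library codes. The replicate block and the library-code block therefore divide those times alike. Leaving out 1 library gave 7 to 9 members by the F test, 3 to 5 at 0.5 h, 5 to 7 at 1 h, 5 to 7 at 6 h, 4 to 6 at 24 h, 0 to 3 at 72 h and 0 at 144 h against 0 h, 3 to 4 at 6 h against 1 h, 0 at 24 h against 6 h, 2 to 5 at 144 h against 24 h and 3 to 4 at 2 h against 0.5 h. The calls of Klf6, Klf4 and Klf10 at 1 h, of Klf2, Klf4 and Klf6 at 0.5 h, and of Klf2, Klf6 and Klf10 at 2 h against 0.5 h held in each fit that left out 1 library. For 2 h against 0.5 h, picked from the members' values, this describes the step and is no test. Depth is known only relative to another library, which limits what can be said of Klf5 at 0 h.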
